A study of Mus musculus with 6 samples.

Results

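DNA replication and mitosis genes were followed in sorted mouse kidney epithelial cells, as 29 genes that license, build and regulate replication forks and 30 genes that drive chromosomes through mitosis. The 59 genes were named by symbol. Of these, 37 were found among the 16095 genes of the deposited table, 22 of the replication group and 15 of the mitosis group; the other 22 were not analysed here. A mean of at least 10 normalized counts over the 6 libraries was reached by 30 of them, 21 replication and 9 mitosis genes, and only these 30 were tested. The 7 below it were Fen1 in the replication group and Mki67, Birc5, Kif11, Hmmr, Prc1 and Cdc20 in the mitosis group. A normalized count is the number of reads of a gene after division by a factor that sets the libraries on a common scale.

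The 6 RNA-seq libraries came from 3 Terf1_flox and 3 control samples. Terf1_flox mice were Trf1lox/lox KFP+/t Cre+/t, with both copies of Trf1 (gene symbol Terf1) flanked by loxP sites, and control mice were Trf1+/+ KFP+/t Cre+/t. Every mouse in both groups carried the Cre, a tamoxifen-inducible CreERT2 under the promoter of Ksp-cadherin (Cdh16), together with the KFP reporter, and every mouse was given tamoxifen. Injections began at 6 to 8 weeks of age, in males and females, and were given 3 times a week for 8 weeks. Kidneys were dissociated with enzymes and cells were sorted by an EpCAM antibody and the reporter signal, so the libraries describe the cells that the Cdh16 promoter and the sort select and not the whole kidney. Nothing in the labels says whether a library holds 1 mouse or several, so the spread reported here is that between libraries.

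Before a cell divides, the MCM2 to MCM7 ring is loaded on origins by CDC6 and CDT1 and is turned into an active helicase by CDC45 and the GINS complex; polymerases, the PCNA clamp and a supply of deoxynucleotides then copy the genome. Mitosis is started by CDK1 with cyclins A and B, carried through by kinesins, kinetochore proteins and mitotic kinases, and ended by the anaphase-promoting complex. Most tubule cells of the adult kidney rest outside the cell cycle and re-enter it after injury. In resting cells E2F and DREAM complexes hold both groups of genes low. TRF1 is a telomere-protecting protein of the shelterin complex, and setting Terf1_flox beside control cells addresses how its loss affects renal epithelium. In bulk libraries such as these, fewer cells that express a gene and less RNA of that gene per cell cannot be told apart.

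Library totals ran from 13870931 to 15375471 reads in Terf1_flox and from 13582140 to 17680986 reads in control libraries. Terf1 averaged 37.3 ± 21.4 normalized counts in Terf1_flox and 560 ± 92.7 in control libraries (SD, n = 3 each), with no overlap. By an exact two-sided permutation test Terf1 had p = 0.1, below which 3 libraries a side cannot go, and its adjusted p in limma, a linear-model test fitted across all genes, was 0.0814. Epcam, the sorting marker, averaged 2081 ± 802 normalized counts in Terf1_flox and 4671 ± 363 in control libraries, and Cdh16 averaged 4359 ± 365 in Terf1_flox and 5641 ± 1354 in control libraries. The summed normalized counts of 8 thick ascending limb and distal tubule markers ran from 190830 to 247740 in Terf1_flox and from 251619 to 302158 in control libraries, far above the 9 proximal tubule markers at 3894 to 12489 and at 1635 to 3275. The 7 endothelial and 5 podocyte markers were not analysed here. A mean of 10 was reached by 1 of 7 fibroblast and pericyte, 2 of 10 macrophage and myeloid, 3 of 9 lymphocyte and 5 of 8 erythroid markers.

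The promoter sequences of the 2 groups were compared for known cell cycle elements, which played no part in choosing the genes. Promoters of 250 bases before to 50 after a start were taken from RefSeq (build GRCm38.p6), which matched 18 of the 22 replication genes, 13 of the 15 mitosis genes and 10370 of all genes tested. An E2F site (TTTCCCGC, TTTCGCGC, TTTGCCGC or TTTGGCGC, either strand) stood in 7 of 21 replication promoters (33.3%) and 1 of 14 mitosis promoters (7.14%), against 3.72% of the 13213 promoters of genes tested. The CHR element (TTTGAA, either strand), which DREAM binds, stood in 4 of 21 replication promoters (19.0%) and 10 of 14 mitosis promoters (71.4%), against 12.3% of promoters of genes tested. CCAAT boxes (CCAAT, either strand) were in 15 of 21 replication promoters (71.4%) and in 12 of 14 mitosis promoters (85.7%), against 37.6% of promoters of genes tested. With the 250 bases before the start alone, CHR elements stood in 4 of 21 replication promoters (19.0%) and 6 of 14 mitosis promoters (42.9%), against 11.0% of promoters of genes tested, and the E2F counts of both groups stayed at 7 and 1. These are counts of letters, not of bound sites, and were not tested.

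The following stretches show these elements in 4 promoters of each group, with matches in capitals. Each is read 5′ to 3′ towards the start, begins at most 10 bases before its first match, and leaves out annotated exon bases. Cdc45, Rrm2, Mcm2, Cks2, Cdk1 and Kif23 were named by the rule on p-values, while Mcm6 and Top2a were chosen after their motifs were seen, to show E2F sites and CHR elements.
Mcm6 (chr1:128359706-128359825, minus strand): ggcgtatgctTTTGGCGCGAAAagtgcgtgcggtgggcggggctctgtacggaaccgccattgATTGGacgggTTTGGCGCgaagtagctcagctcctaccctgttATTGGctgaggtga
Cdc45 (chr16:18812079-18812222, minus strand): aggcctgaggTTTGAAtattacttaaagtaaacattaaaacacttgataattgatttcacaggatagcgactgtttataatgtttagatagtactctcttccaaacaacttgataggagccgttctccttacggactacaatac
Mcm2 (chr6:88898781-88898965, minus strand): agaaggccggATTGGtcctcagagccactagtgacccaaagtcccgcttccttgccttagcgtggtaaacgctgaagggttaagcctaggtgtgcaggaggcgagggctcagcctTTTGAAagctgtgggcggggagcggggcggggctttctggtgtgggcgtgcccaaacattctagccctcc
Rrm2 (chr12:24708194-24708240, plus strand): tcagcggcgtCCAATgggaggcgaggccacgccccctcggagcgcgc
Top2a (chr11:99024190-99024426, minus strand): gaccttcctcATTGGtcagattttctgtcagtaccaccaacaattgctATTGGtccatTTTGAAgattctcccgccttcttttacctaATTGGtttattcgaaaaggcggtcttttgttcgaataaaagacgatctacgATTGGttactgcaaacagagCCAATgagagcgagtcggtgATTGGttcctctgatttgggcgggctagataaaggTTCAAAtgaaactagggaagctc
Cdk1 (chr10:69352939-69353130, minus strand): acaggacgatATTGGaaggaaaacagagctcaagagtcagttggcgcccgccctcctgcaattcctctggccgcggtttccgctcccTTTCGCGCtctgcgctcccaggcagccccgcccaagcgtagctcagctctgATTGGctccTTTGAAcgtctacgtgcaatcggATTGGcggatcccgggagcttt
Cks2 (chr13:51645157-51645231, plus strand): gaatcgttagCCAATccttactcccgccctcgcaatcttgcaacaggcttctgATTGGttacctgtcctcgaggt
Kif23 (chr9:61946800-61946816, minus strand): gcggccgctgATTGGcc
In Mcm6, E2F sites began 110, 106 and 47 bases before the start, the first 2 overlapping on opposite strands. In Top2a, CHR elements began 179 and 23 bases before the start, among 6 CCAAT boxes. Cdk1 held an E2F site at 131 and a CHR element at 71 bases, while Mcm2 held no E2F site of these letters and a CHR element at 70 bases. Cdc45 held a CHR element 240 bases before the start, and Rrm2, Cks2 and Kif23 showed CCAAT boxes alone.

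No gene of either group passed the test of Terf1_flox against control. With limma on log2(normalized count + 1) and two-sided p-values adjusted over all 14822 genes tested, 0 of the 30 genes reached an adjusted p below 0.05, and 0.0% of all genes did. The lowest adjusted p was 0.428 among replication genes (Ccne2) and 0.267 among mitosis genes (Cks2). At an unadjusted p below 0.05 there were 0 of 21 replication genes and 1 of 9 mitosis genes, against a background of 14.1% of all genes tested. edgeR quasi-likelihood tests on the recovered reads also gave 0 adjusted calls, and 5 of the 30 at an unadjusted p below 0.05 (Cdc45, Gins2, Rrm2, Ccna2 and Cks2) where all genes gave 13.4%. DESeq2 called 1 of the 30, Rrm2, where it called 5.81% of all genes; 5 of the 30 received no adjusted p from it.

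**Figure D1:**
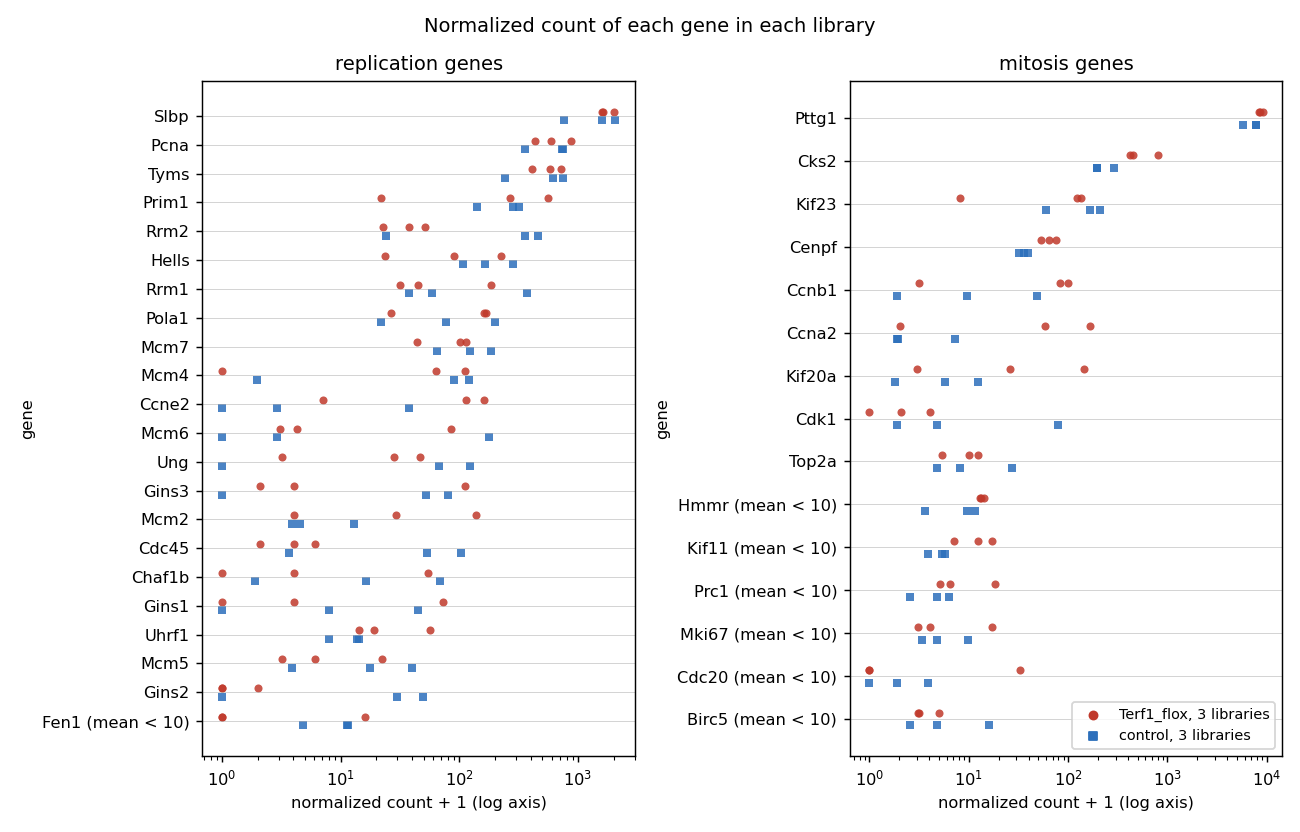
Normalized count plus 1 (log axis) of the 37 genes in each library, with Terf1_flox libraries as red circles above control libraries as blue squares; genes run from the highest mean at the top to the lowest, and those below a mean of 10 are marked. Pttg1, Slbp, Pcna and Tyms form tight rows, while genes such as Mcm4, Mcm6 and Gins3 reach about 100 or more in some libraries and nearly 0 in others of the same group.

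Among the helicase genes of the replication group, 2 of 9 tested had a log2 fold change above 0 and 7 below, with a median of −0.52. Mcm2, a subunit of the MCM ring, was at 137, 3.08 and 28.3 normalized counts in Terf1_flox libraries, against 3.52, 2.86 and 11.8 in control libraries. A single Terf1_flox library thus stood far above the rest and another lay among the control values, and the log2 fold change was 2.07 ± 1.52 (SE; limma adjusted p = 0.585). Mcm7, the steadiest of the ring genes, was at 100, 43.1 and 112 normalized counts in Terf1_flox libraries, against 122, 63.9 and 183 in control libraries. Mcm6 was at 3.26, 2.05 and 84.0 in Terf1_flox and at 0, 1.91 and 178 in control libraries, high in 1 library of each group and near 0 in the other two.

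Cdc45, which joins the ring at firing, was at 1.09, 3.08 and 5.06 normalized counts in Terf1_flox libraries, against 2.64, 102 and 52.1 in control libraries. Every Terf1_flox value was low, but control replicate 1 was as low, so the groups overlapped (log2 fold change −2.86 ± 1.54, limma adjusted p = 0.447). Gins2, a subunit of the GINS complex, had 0, 1 and 0 reads in Terf1_flox libraries and 33, 0 and 61 reads in control libraries. The ratio of its summed reads, 1 against 94, was 0.0127 (exact 95% interval 0.000319 to 0.0728, counting error only). It was scaled by the summed normalization factors of each group's libraries. The interval leaves out the spread between libraries and is no test of the groups. The ratio rests on control replicates 1 and 3, since control replicate 2 had no read either. Gins2 passed the minimum mean through its control libraries (mean 25.7, against 0.342 in Terf1_flox), so the filter itself favoured a low ratio. The limma adjusted p of Gins2 was 0.469. The GINS subunits Gins1 and Gins3 had log2 fold changes of −0.10 and −0.72, each with an SE above 2.

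The fork genes spanned the range of levels, with Pcna among the highest of the group and Fen1, the flap endonuclease, the lowest at a mean of 6.64 normalized counts. Pcna, the sliding clamp, was at 431, 589 and 864 normalized counts in Terf1_flox libraries, against 749, 354 and 732 in control libraries. The groups spanned nearly the same range and the log2 fold change was 0.06 ± 0.44. Prim1, the primase subunit that starts each new strand, was at 20.7, 554 and 265 in Terf1_flox and at 140, 280 and 317 in control libraries, so Terf1_flox replicates 1 and 2 lay below and above every control value. Pola1, the catalytic subunit of the polymerase that works with primase, had a log2 fold change of 0.35 ± 1.09.

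Genes of deoxynucleotide supply differed in how they varied. Rrm2, the S-phase subunit of ribonucleotide reductase, was at 21.8, 36.9 and 50.6 normalized counts in Terf1_flox libraries, against 357, 22.9 and 455 in control libraries. Terf1_flox values were all low, while control libraries held 2 high values and 1 low one (log2 fold change −2.15 ± 1.17; limma adjusted p = 0.451, DESeq2 adjusted p = 0.0468). The log2 fold change was −3.51 without control replicate 2, −1.56 without control replicate 1 and −1.38 without control replicate 3. Its partner Rrm1 did not follow it: the values were 43.5, 184 and 30.4 in Terf1_flox and 36.9, 58.1 and 370 in control libraries. Tyms, thymidylate synthase, was at 405, 718 and 574 in Terf1_flox and at 739, 239 and 620 in control libraries, with a log2 fold change of 0.20 ± 0.50. Ung, which removes uracil from DNA, had a log2 fold change of −0.33 ± 1.97.

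Ccne2, a cyclin E that with CDK2 starts S phase, was the only one of 4 regulators tested. It was at 112, 6.16 and 160 normalized counts in Terf1_flox libraries, against 36.9, 1.91 and 0 in control libraries. Terf1_flox replicate 2 lay within the control range, and the log2 fold change was 3.40 ± 1.77 (limma adjusted p = 0.428). Among genes that copy chromatin, Slbp, which binds the ends of histone mRNAs, was at 1612, 2015 and 1576 in Terf1_flox and at 1604, 763 and 2060 in control libraries (log2 fold change 0.34 ± 0.38). Hells, a chromatin remodeller, was at 22.8, 88.3 and 224 in Terf1_flox and at 106, 162 and 284 in control libraries. Uhrf1, which guides DNA methylation at forks, was at 55.5, 13.3 and 18.2 in Terf1_flox and at 7.04, 13.3 and 12.6 in control libraries. Of these 3 none had groups that stood apart.

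Mitosis genes were fewer and, among those tested, leaned the other way. Of 9 tested, 6 had a log2 fold change above 0 and 3 below, with a median of 0.84, where all genes tested had a median of −0.08 and 47.2% above 0. The groups did not overlap for 3 of them, Cks2, Cenpf and Pttg1, each higher in every Terf1_flox library than in any control library; over all genes tested 10.3% stood apart in that direction and 21.1% in either. Of the 21 replication genes tested 0 stood apart. Overlap was judged on the deposited scale alone. Among the 6 mitosis genes below the minimum mean, 2 (Kif11 and Hmmr) stood apart upwards, at means of 7.61 and 9.87 normalized counts. In reads, Kif11 had 15, 11 and 6 in Terf1_flox libraries against 5, 3 and 6 in control libraries. Hmmr had 11, 12 and 13 reads against 3, 11 and 11. In both the lowest Terf1_flox count equalled the highest control count, so only the scaling set the groups apart. The share among all genes below the minimum was not computed. Members of both groups that passed the minimum did so partly through high values in single libraries or in 1 group, as Gins2 did in control libraries. The counts and medians of both groups thus describe them and were given no test.

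Cks2, a small protein that docks on CDK1, was at 417, 803 and 446 normalized counts in Terf1_flox libraries, against 195, 194 and 288 in control libraries. Terf1_flox replicate 2 was the highest and the lowest Terf1_flox value still exceeded every control value. The log2 fold change was 1.25 ± 0.45 (limma: unadjusted p = 0.0218, adjusted p = 0.267; DESeq2 adjusted p = 0.0978). Its unadjusted limma p was 0.0864 without Terf1_flox replicate 2, 0.0614 without control replicate 1 and 0.0516 without control replicate 2. With transcript GC content and length corrected, the Cks2 log2 fold change was 0.96. In GENCODE, 5 processed pseudogenes match part of the Cks2 transcript at 91.2% identity or more, so some of its reads may come from copies.

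Cenpf, a kinetochore protein, was at 75.1, 52.3 and 63.8 normalized counts in Terf1_flox libraries, against 38.7, 35.3 and 30.8 in control libraries. The libraries of each group lay close together, with an SD within groups of 0.21 on the log2 scale, far less than the median of 1.83 for tested genes with a mean under 100. The log2 fold change was 0.84 ± 0.79; limma shares information on the spread between genes of a level, so the SE is wider than these 6 values alone would give (adjusted p = 0.679). Pttg1, the securin that keeps separase inactive until anaphase, was at 8287, 9122 and 8631 in Terf1_flox and at 7773, 5792 and 7742 in control libraries. Its log2 fold change was 0.30 ± 0.18 (adjusted p = 0.5), and without control replicate 2 the log2 fold change was 0.16.

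Pttg1 stood far above the other mitosis genes in level. Per kilobase of transcript it reached 11273 normalized counts, where the median of the 9 mitosis genes was 16.4, that of the 21 replication genes 23.6 and that of all genes tested 75.9. It made up 88.7% to 91.1% of the summed normalized counts of the 15 mitosis genes in Terf1_flox libraries and 92.3% to 95.5% in control libraries. Without Pttg1 the sum was 877, 1167 and 843 in Terf1_flox and 370, 484 and 646 in control libraries. Without Pttg1 and Cks2 it was 460, 364 and 397 in Terf1_flox and 175, 290 and 358 in control libraries. The groups then stood apart by a narrow margin, 364 against 358, on the deposited scale alone. Different genes led these sums: Ccna2 (166) in Terf1_flox replicate 1, Kif20a (144) in Terf1_flox replicate 2 and Kif23 (207) in control replicate 3.

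The cyclins and CDK1 gave no common picture. Ccna2, cyclin A, was at 166, 1.03 and 57.7 normalized counts in Terf1_flox libraries, against 0.88, 0.953 and 6.32 in control libraries. Terf1_flox replicate 2 was as low as the controls (log2 fold change 3.18 ± 1.80, limma adjusted p = 0.468). Ccnb1, cyclin B, was at 2.18, 82.1 and 98.2 in Terf1_flox and at 0.88, 47.7 and 8.68 in control libraries. Cdk1, their kinase, was at 1.09, 3.08 and 0 in Terf1_flox and at 0.88, 3.81 and 78.1 in control libraries. The libraries with high Ccna2, Terf1_flox replicates 1 and 3, thus held at most 1 read of Cdk1, and the only library with more than 5 reads of Cdk1 was control replicate 3.

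Spindle and division genes were as uneven. Kif20a, a kinesin of the central spindle, was at 25, 144 and 2.02 normalized counts in Terf1_flox libraries, against 11.4, 4.77 and 0.789 in control libraries. Kif23, another kinesin of the central spindle, was at 134, 7.18 and 122 in Terf1_flox and at 58.9, 166 and 207 in control libraries, so the Terf1_flox library with the most Kif20a had the least Kif23. The classical proliferation markers were close to the floor. Mki67 (Ki-67) was at 16.3, 2.05 and 3.04 in Terf1_flox and at 8.80, 3.81 and 2.37 in control libraries, which is 2 to 15 reads in any library. Top2a, the topoisomerase that untangles chromosomes, was at 4.35, 11.3 and 9.11 in Terf1_flox and at 26.4, 3.81 and 7.10 in control libraries.

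**Figure D2:**
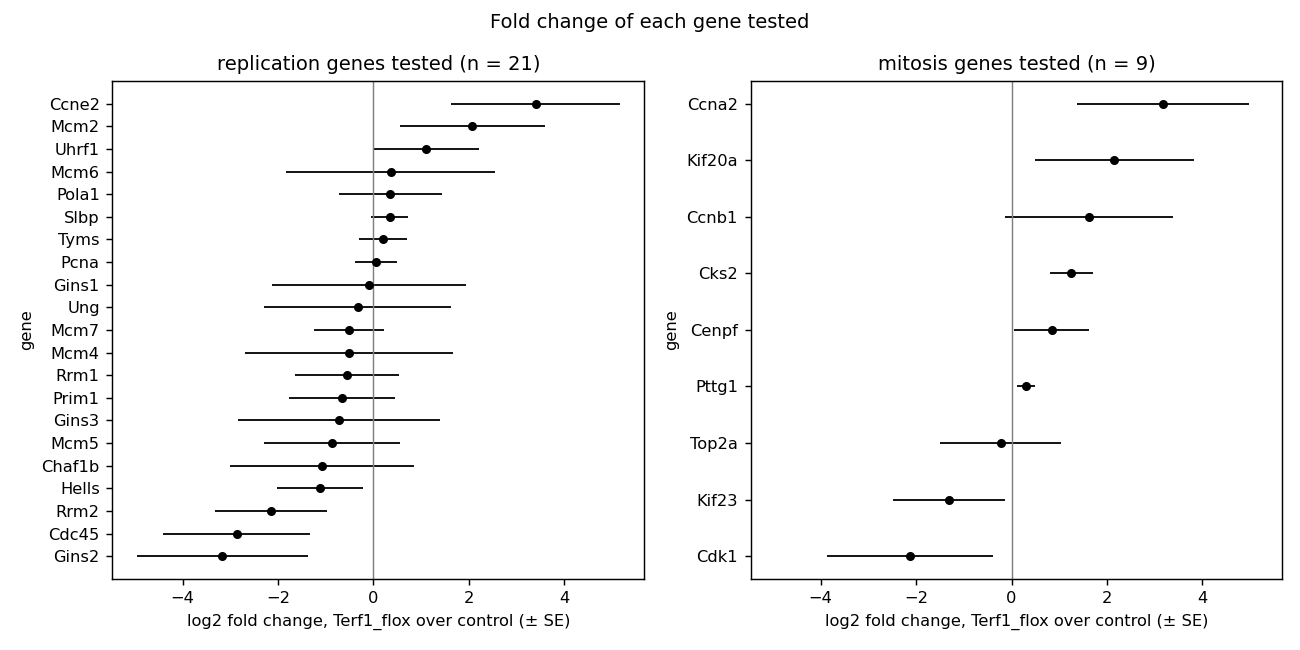
Log2 fold change of Terf1_flox over control with its SE (limma) for the 21 replication and 9 mitosis genes tested, ordered by size. Replication genes run from −3.17 to 3.40 and mitosis genes from −2.13 to 3.18, and the bars of the abundant Pttg1, Slbp, Pcna, Tyms and Cks2 are the shortest.

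Set beside each other, the 2 groups differed by −1.35 in median log2 fold change, −0.51 for replication and 0.84 for mitosis genes, each over the genes tested. Under equal library totals, equal upper quartiles and quantile normalization the replication median was −0.62, −0.39 and −0.32 and the mitosis median 0.67, 0.96 and 1.04, so neither changed sign with the scaling. The replication median did turn with single libraries. It was 0.30 without Terf1_flox replicate 1 and 0.43 without control replicate 3. Without control replicate 1 the mitosis median was 0.48.

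The same log2 values were also set out library by library, as the median deviation of a group's genes from their own means over the 6 libraries. These medians restate the values behind the fold changes. Replication genes were at −1.10, −0.76 and 0.55 (log2) in Terf1_flox and at 0.34, −1.41 and 1.30 in control libraries, so the highest and the lowest library were both controls. Control replicate 3 held the highest value of 9 of the 21 genes. The lowest values fell in Terf1_flox replicate 1 for 8 genes and in control replicate 2 for 7. Mitosis genes were at 0.28, 0.22 and 0.38 in Terf1_flox and at −0.43, −0.43 and −0.25 in control libraries. The SD of these medians within groups was 0.09 for mitosis and 1.15 for replication genes. Each mitosis median is the value of the middle gene, in most libraries Cks2 or Pttg1, which were already reported as standing apart. The small SD thus does not show that mitosis genes moved together, since their own SD within groups had a median of 1.76. All genes tested were between 0.02 and 0.11 in the 6 libraries.

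**Figure D3:**
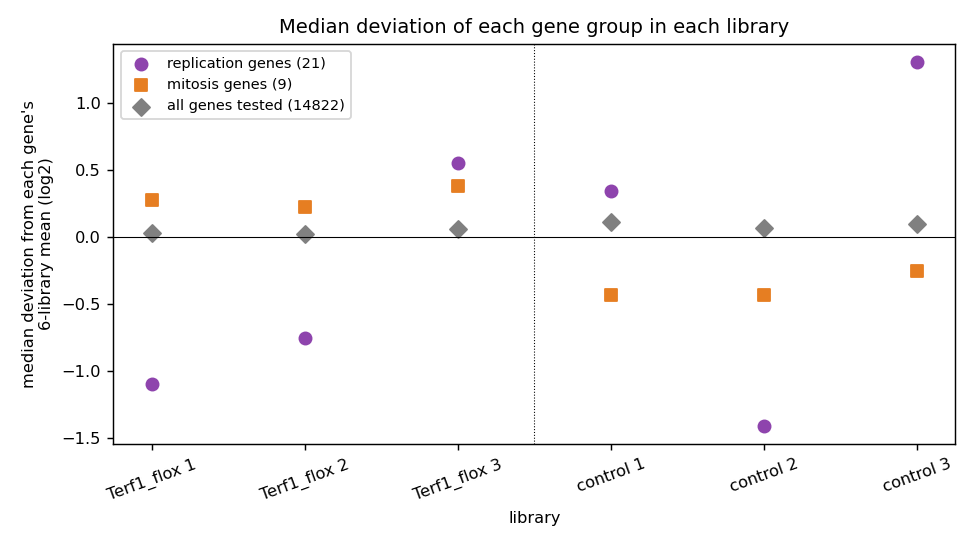
Median deviation (log2) of the replication genes (purple circles), mitosis genes (orange squares) and all genes tested (grey diamonds) from each gene's mean over 6 libraries, by library. The mitosis median, in most libraries the value of Cks2 or Pttg1, lies above 0 in the 3 Terf1_flox and below 0 in the 3 control libraries. The replication median ranges from −1.41 in control replicate 2 to 1.30 in control replicate 3.

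Numbers of genes with few reads come from the same reads as the library medians above, and so are no separate observation. Of the 22 replication genes, 9, 8 and 2 had at most 3 reads in Terf1_flox libraries, and 3, 9 and 1 had at most 3 reads in control libraries. For the 15 mitosis genes these numbers were 4, 4 and 4 in Terf1_flox and 5, 3 and 5 in control libraries. Over all genes tested, 9.56% to 12.6% had at most 3 reads in Terf1_flox and 5.97% to 9.49% in control libraries. Lymphocyte markers summed to 154, 24.6 and 824 normalized counts in Terf1_flox and to 223, 192 and 209 in control libraries, and proximal tubule markers were higher in each Terf1_flox than in any control library. The part of these in the values above was not tested.

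Unevenness within a group was the common feature of both sets. At least 50 reads in 1 library and at most 3 in another of the same group were found for 9 of 21 replication genes (42.9%) and 4 of 9 mitosis genes (44.4%), against 18.6% of all genes tested and 40.3% of those with a mean under 100. Gins1, Gins2, Gins3, 3 of the MCM genes, Cdc45, Ung and Chaf1b made up the replication genes, and Ccnb1, Ccna2, Cdk1 and Kif20a the mitosis genes. The median SD within groups was 1.79 (log2) for replication and 1.76 for mitosis genes, against 0.88 for all genes tested and 1.83 for those with a mean under 100. Split by level, the 12 replication genes with a mean under 100 had a median SD of 2.68 and the 6 such mitosis genes 2.16. All of the genes with the uneven reads were among these, 9 of 12 (75.0%) and 4 of 6 (66.7%). At a mean of 100 or more, the median SD was 1.26 for 9 replication genes and 0.43 for 3 mitosis genes, against 0.62 for all genes tested at that level. The SD was 0.54 for Slbp, 0.56 for Pcna and 0.18 for Pttg1. These differences in spread were not tested.

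**Figure D4:**
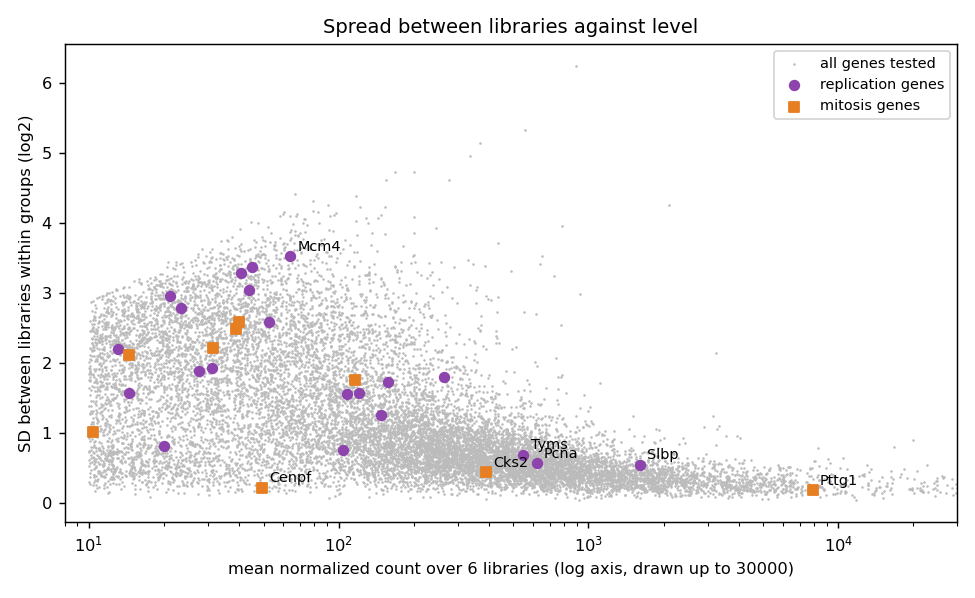
SD between libraries within groups (log2) against mean normalized count (log axis) for the 14822 genes tested (grey), replication genes (purple circles) and mitosis genes (orange squares). Most of the genes followed here have low means and an SD above 1, among many others of that level, and Cenpf, at an SD of 0.21, is the lowest of those with a mean under 100.

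Base composition differed between the groups too. The median GC content of transcripts was 49.3% for the 21 replication genes, 45.7% for the 9 mitosis genes and 49.6% for all genes tested with a value. When all genes were split by GC content into 5 bins, the log2 fold changes had a median of 0.37 in the lowest bin and −0.49 in the highest. The highest bin held 2 replication and 0 mitosis genes. With the log2 values corrected for GC content and transcript length the medians were −0.22 for replication and 0.73 for mitosis genes.

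Other genes of the same processes were less uneven within groups than the 2 sets above. Their median SD within groups was 0.93 for replication and 1.32 for mitosis genes, against 0.88 for all genes tested. At most 3 reads in 1 library and at least 50 in another of the same group were found for 14.6% and 22.2%, against 18.6% of all genes tested. Of 41 further replication genes tested, 18 had a log2 fold change above 0 and 23 below (median −0.13); 3 were higher and 4 lower at an unadjusted p below 0.05, against 5.7% higher and 8.43% lower of all genes, and 0 passed over all genes in limma. Pole, the catalytic subunit of the leading-strand polymerase, was at 294, 370 and 406 normalized counts in Terf1_flox and at 100, 67.7 and 126 in control libraries (log2 fold change 1.89 ± 0.52, limma adjusted p = 0.188, DESeq2 adjusted p = 0.0275). Rpa3, the small subunit of the single-strand binding protein, was at 1186, 982 and 1115 in Terf1_flox and at 471, 268 and 651 in control libraries (1.33 ± 0.40, limma adjusted p = 0.203, DESeq2 adjusted p = 0.0424). In both, the groups did not overlap, and these were the 2 of 41 that DESeq2 called higher, where it called 2.47% of all genes higher. Orc4, of the origin recognition complex, had a log2 fold change of 0.80 ± 0.33. Rnaseh2a, of the enzyme that removes RNA from DNA, went the other way, at 68.5, 0 and 1.01 in Terf1_flox and 135, 125 and 467 in control libraries.

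Of 45 further mitosis genes tested, 15 had a log2 fold change above 0 and 30 below (median −0.46), a lean opposite to that of the 9 genes above. At an unadjusted p below 0.05 in limma, 1 was higher and 2 lower, against 5.7% higher and 8.43% lower of all genes tested. These 3 mitosis genes all code for subunits of the anaphase-promoting complex, which supplies many of the genes on this list. Cdc23 was at 76.1, 61.6 and 76.9 normalized counts in Terf1_flox and at 703, 157 and 553 in control libraries (−2.45 ± 0.67, limma adjusted p = 0.188, DESeq2 adjusted p = 0.00261). It was the 1 of 45 that DESeq2 called lower, where it called 3.34% of all genes lower. Anapc4 had a log2 fold change of −0.95 ± 0.41 and Cdc26 of 0.87 ± 0.33, and neither passed over all genes. Zwint, a kinetochore protein, was the fourth named, at −1.27 ± 0.56. Of 17 further E2F, RB and DREAM genes tested, 6 were above 0, 11 below and 0 at an unadjusted p below 0.05, against 14.1% of all genes tested. Cdk2, the partner of cyclin E, had the smallest p (−1.67 ± 0.80), followed by Lin37, E2f6 and Lin52. Cdkn1a, whose product p21 inhibits CDK2, was at 268 ± 108 in Terf1_flox and 616 ± 256 in control libraries (SD, n = 3 each; limma adjusted p = 0.329).

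Some of these reads cannot be assigned with certainty. In the GENCODE annotation, 7 of the 30 tested genes share exon bases with a gene on the opposite strand, among them Gins2 with Gse1, Kif20a with Cdc23, Ccne2 with Ints8 and Ccna2 with Exosc9, and no source used here says that reads were counted by strand. Pseudogenes at 90% identity or more over at least 25% of the transcript exist for 8 of the 30, including Pcna, Tyms, Slbp, Ccnb1 and Cks2.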

How the data were processed

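RNA was measured in 6 libraries of sorted kidney epithelial cells (polyadenylated RNA, a low-input kit, per the labels' protocols). The deposited values are a signal, normalized counts, on a scale of reads divided by 1 factor per library, as the values themselves show; DESeq2 and the build GRCm39 are named in the submitters' processing notes, and the aligner, counter, annotation and gene filter have no statement in the sources used here. Each deposited value came to a whole read, with a tolerance of 0.01, once divided by the smallest step in its library, and these reads were recovered. The values are not divided by gene length. Intervals and read limits cover counting error only, since the labels name no molecular identifiers.

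Genes with a mean of at least 10 were tested with limma 3.58.1 under R 4.3.3, with a mean-variance trend, on log2(normalized count + 1), which understates changes of low genes; fold changes are Terf1_flox over control. Benjamini-Hochberg adjustment ran over 14822 genes. edgeR (4.0.16) and DESeq2 (1.42.0) were run on the recovered reads. The main limma fit, edgeR and DESeq2 were run on simulated data, with changes planted only in genes with a mean of at least 50. The other settings were not. Near copies were found with BLAST (2.17.0) in GENCODE M21 transcripts (GRCm38), which also gave GC content and length for 15701 genes; gene coordinates on GRCm39 are not given. Genes given in every library were Mki67, Top2a, Pcna and Mcm2, and per group the 8 tested genes with the smallest p and the 4 with the highest mean; Mcm6, Mcm7, Rrm1, Kif11 and Hmmr were added after their values were seen. Up to 4 genes of each wider list with the smallest p were named, beside Terf1, Cdh16, Epcam and Cdkn1a. The genes, lists and tests were chosen with earlier results of these data known.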

Additional observations from a re-analysis of the deposited data

How the results depend on the processing

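Across the alternatives run, 0 of the 30 tested genes were called, except with DESeq2, which called 1 (Rrm2, log2 fold change −2.91, adjusted p = 0.0468). Replication genes at an unadjusted p below 0.05, 0 in the main fit, were 3 with DESeq2, 3 with edgeR and 0 to 2 when 1 library was left out. Mitosis genes, 1 in the main fit, were 2 with DESeq2, edgeR and equal upper quartiles, 0 with GC content and length corrected, 0 with that correction and the replicate block, and 0 to 2 when 1 library was left out. Over all genes, the share at that level was 14.1% in the main fit, 16.4% with DESeq2 and 13.4% with edgeR. Of 14822 genes, 2081 reached it with equal upper quartiles and 1487 to 2060 when 1 library was left out. Of 14489 genes, 1733 did with GC content and length corrected and 1562 with the replicate block added. The mitosis median of 0.84 was 0.73 with GC content and length corrected (0.73 also with the replicate block), 0.67 with equal totals, 0.96 with equal upper quartiles, 1.04 with quantile normalization, 0.30 at a mean of at least 50 and 0.48 to 0.85 when 1 library was left out. The replication median ran from −0.91 to 0.43 and the difference of the medians from −1.76 to −0.33 when 1 library was left out. The median of all genes was −0.08 as deposited, −0.24 with equal totals, 0.04 with equal upper quartiles and 0.06 with quantile normalization.

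Terf1 passed with DESeq2 (−3.89, adjusted p = 5.42e-08), equal totals (−4.17, adjusted p = 0.0497) and a mean of at least 50 (−3.99, adjusted p = 0.0285). Signs turned for Prim1 with DESeq2 (0.21) and edgeR (0.21), Pcna with equal totals (−0.12) and Top2a with quantile normalization (0.0203). When 1 library was left out, Top2a ran from −0.77 to 0.48, Prim1 from −1.61 to 0.72, Kif23 from −2.01 to 0.0156, Pcna from −0.30 to 0.30, Slbp from −0.0767 to 0.64 and Tyms from −0.30 to 0.51; the cause was not tested.

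The labels name nothing but a number that same-numbered libraries share. Deviations of same-numbered libraries correlated at −0.0486, 0.000129 and −0.00694 across genes, and those of differently numbered ones at −0.028 to 0.0388. With so few libraries in a group, such values cannot show whether any were paired. The replicate block left 0 genes called, 0 replication and 1 mitosis genes at an unadjusted p below 0.05, and the medians at −0.51 and 0.84. With it, 1884 of all 14822 genes were at an unadjusted p below 0.05. Depth limits genes such as Mki67, with 2 to 15 reads in a library, which were not tested.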

Other observations

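Ccna2 and Exosc9, a subunit of the RNA exosome, share 428 exon bases on opposite strands. Exosc9 was at 2.18, 639 and 393 normalized counts in Terf1_flox libraries and at 195, 311 and 588 in control libraries, so the library with the most Ccna2, Terf1_flox replicate 1, had the least Exosc9. Kif20a and Cdc23 share 977 exon bases on opposite strands. Kif20a had a log2 fold change of 2.16 ± 1.66 and Cdc23 of −2.45 ± 0.67. Other opposite-strand partners did not mirror their genes. Ints8 had a log2 fold change of 0.18 (Ccne2 3.40), Gse1 of −0.70 (Gins2 −3.17) and Ufd1 of −0.03 (Cdc45 −2.86). No source used here says how reads of any of these pairs were divided, and this was not tested.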
